A study of Mus musculus with 34 samples.

Results

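The measurements described here are the gene expression differences between back skin of p53 knockout mice taken 24 h after 5 Gy of ionizing radiation and back skin of unirradiated p53 knockout mice (0 h). Genes entered when the mean FPKM (fragments per kilobase of transcript and per total of mapped fragments) was 1 or more in at least 1 of these groups, which held for 14089 of the 47633 genes in the back skin table. The study sequenced RNA from 34 mouse skin samples in 17 groups of 2. The groups used here are p53 knockout skin at 0, 6 and 24 h after 5 Gy, Krt17 knockout skin at the same times and wild-type skin at the same times, that is 18 samples in 9 groups. Every sample was back skin of mice 8 to 10 weeks old, taken while hair was growing. The labels do not describe the p53 or Krt17 knockout alleles, the cells in which they act, or whether the samples of a group came from separate animals. The values used are 1 deposited mean per group, so no difference has a replicate check, no test was possible, and every difference is a size only. A gene is called higher or lower when its log2 ratio of (FPKM + 1) is at least 1 or at most -1, a change of 2-fold or more.

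p53 is a transcription factor that DNA damage stabilizes. It switches on genes that halt the cell cycle, repair DNA or trigger cell death. In growing hair follicles the fast-dividing matrix cells at the base, which Sonic hedgehog signalling maintains, give rise to the hair shaft and are known for their sensitivity to radiation. Skin also carries an inflammatory programme, in which serum amyloid A proteins and lipocalin 2 are made, and a keratinocyte stress programme of defensins, stefins and cornified envelope proteins.

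Trp53, the gene for p53 (chromosome 11, 69580359 to 69591873, plus strand, GRCm38), had 25.8, 18.0 and 28.8 FPKM in the p53 knockout at 0, 6 and 24 h, against 30.1, 28.6 and 20.9 FPKM in Krt17 knockout skin and 43.8, 19.3 and 21.5 FPKM in wild-type skin. Such whole-gene levels do not test whether part of the gene is missing. Krt17 had 1475, 883 and 1396 FPKM in p53 knockout skin, 18.9, 14.7 and 29.9 FPKM in Krt17 knockout skin and 1650.3, 1358 and 1919 FPKM in wild-type skin. Defining markers of keratinocytes (Krt5, Krt14, Krt10), growing follicles (Krt71, Krt35), fibroblasts (Col1a1, Dcn) and skeletal muscle (Acta1, Ckm) were all measured at well above 1 FPKM in both p53 knockout groups. In such bulk tissue, fewer cells of a type and less RNA per cell cannot be told apart. The FPKM columns summed to between 854202 and 1095024, and the reads behind a value are not given in the sources used here.

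At 24 h, 137 genes were higher (0.972% of those compared) and 163 were lower (1.16%), and the median log2 ratio of all genes was 0.04. The median of all genes at 24 h was -0.10 in Krt17 knockout skin and -0.21 in wild-type skin. List medians of those genotypes are to be read beside these values. Before irradiation, p53 knockout and wild-type skin already differed by 2-fold or more in 266 of 14015 genes (1.9%), and p53 knockout and Krt17 knockout skin in 288 of 13954 (2.06%), so the 300 genes called at 24 h (2.13%) are about as many as separate unirradiated groups. Of the called genes, 72 of the higher and 90 of the lower reached 5 FPKM in at least 1 group. Protein-coding genes made up 87 of the higher and 104 of the lower.

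**Figure D1:**
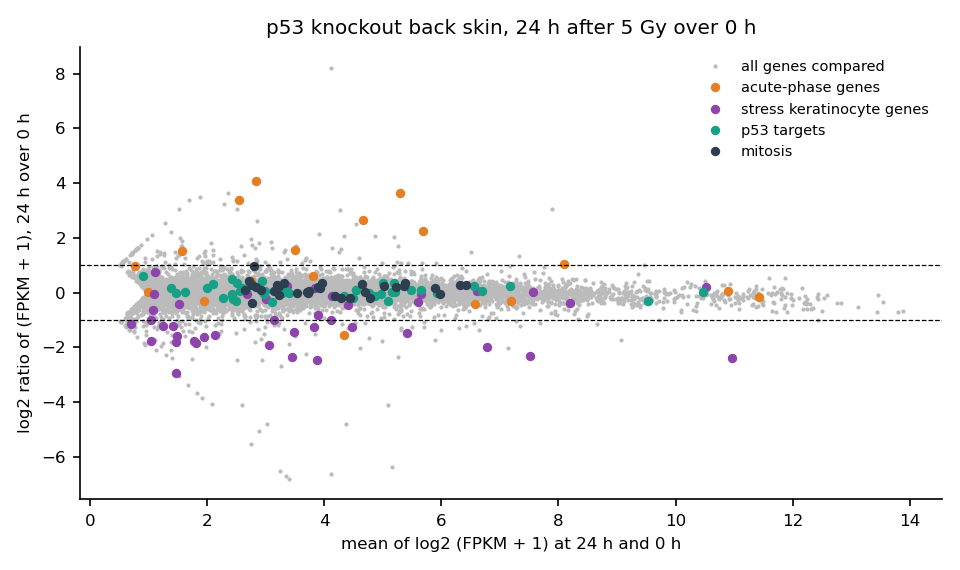
Each point is 1 of the 14089 genes, with the mean of its log2 (FPKM + 1) at 24 h and 0 h on the x axis and its log2 ratio on the y axis, and dashed lines at 2-fold. The acute-phase genes reach a log2 ratio of 4.08, most stress keratinocyte genes lie below 0, and every p53 target and mitotic gene lies between the dashed lines.

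The promoters of the serum amyloid A genes, Lcn2 and Serpina3n are shown because these genes had some of the greatest increases among abundant genes. Each runs from 250 bases before to 50 bases after the start site (RefSeq, GRCm38.p6), 5′ to 3′ on the gene's strand, with capitals marking the letters TTGCNNAA on either strand, a core of sites read by C/EBP transcription factors:
Saa3 (chr7:46715627-46715926, minus strand): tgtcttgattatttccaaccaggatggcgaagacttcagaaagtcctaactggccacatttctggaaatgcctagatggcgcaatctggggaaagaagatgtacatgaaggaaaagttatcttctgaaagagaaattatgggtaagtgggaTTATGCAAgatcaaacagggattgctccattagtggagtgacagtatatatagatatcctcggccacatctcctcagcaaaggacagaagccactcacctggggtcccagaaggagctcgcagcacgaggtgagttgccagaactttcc
Saa1 (chr7:46742931-46743230, minus strand): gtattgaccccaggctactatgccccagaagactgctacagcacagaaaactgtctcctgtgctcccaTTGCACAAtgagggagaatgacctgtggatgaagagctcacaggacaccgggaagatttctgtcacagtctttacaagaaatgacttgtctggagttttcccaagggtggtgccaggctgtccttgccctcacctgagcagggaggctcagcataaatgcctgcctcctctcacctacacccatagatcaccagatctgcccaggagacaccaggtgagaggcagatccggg
Saa2 (chr7:46751583-46751882, plus strand): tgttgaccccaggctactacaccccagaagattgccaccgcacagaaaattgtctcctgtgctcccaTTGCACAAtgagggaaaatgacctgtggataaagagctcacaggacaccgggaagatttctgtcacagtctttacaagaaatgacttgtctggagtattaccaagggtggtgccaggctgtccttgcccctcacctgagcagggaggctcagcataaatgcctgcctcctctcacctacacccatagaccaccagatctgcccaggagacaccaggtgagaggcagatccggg
Lcn2 (chr2:32387690-32387989, minus strand): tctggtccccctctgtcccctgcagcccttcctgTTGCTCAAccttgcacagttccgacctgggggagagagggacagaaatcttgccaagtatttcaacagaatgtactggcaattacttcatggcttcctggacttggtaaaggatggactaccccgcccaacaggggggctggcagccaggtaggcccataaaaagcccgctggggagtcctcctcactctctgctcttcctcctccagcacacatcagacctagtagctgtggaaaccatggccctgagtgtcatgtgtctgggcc
Serpina3n (chr12:104406458-104406757, plus strand): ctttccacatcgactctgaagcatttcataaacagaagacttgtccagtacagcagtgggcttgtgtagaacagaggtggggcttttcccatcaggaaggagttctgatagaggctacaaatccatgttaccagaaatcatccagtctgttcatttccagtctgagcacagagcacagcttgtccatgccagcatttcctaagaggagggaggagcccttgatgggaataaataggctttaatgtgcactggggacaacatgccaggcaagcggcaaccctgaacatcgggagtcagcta
The Saa1 and Saa2 windows were 95.3% identical, so reads and promoter letters of this pair are hard to separate. In all, 6 motifs were searched. The first 5 were searched on both strands. The NF-kB motif was GGGNNNNNCC. A wider C/EBP form, which takes in the narrow form, was TTNNGNAA. The STAT motif was TTCNNNGAA. The AP-1 motif was TGANTCA. The TATA box was read as TATAAA. The narrow form in capitals was chosen after the sequences had been read, so its presence in the windows shown supports nothing. It stood in 4 of the 6 acute-phase genes called higher that had a promoter in the table (not in Serpina3n or Chil3), in 6 of the 11 acute-phase genes not called higher, and in 10.8% of all 32851 promoters. The wider form stood in 6 of 6 and 10 of 11 of the same genes and in 40.7% of all promoters, and NF-kB letters in 5 of 6, 8 of 11 and 50.8%. None of these counts sets the acute-phase genes called higher apart from the rest of their list. Among the 99 lower genes with a promoter, AP-1 letters stood in 25.3%, the TATA box in 28.3% and the wider C/EBP form in 65.7%. Among the 73 higher genes with a promoter the shares were 13.7%, 21.9% and 46.6%, and among the 13263 promoters of all compared genes 5.90%, 8.41% and 32.1%. These 3 motifs were thus more frequent than over all compared genes in both directions. NF-kB letters were not, with 65.8% of the higher, 61.6% of the lower and 66.95% of all compared genes. STAT letters stood in 9.59%, 8.08% and 6.85% in the same order. Several of the lower genes are near-identical neighbours. A match is a description of letters, not of a bound site.

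Genes that p53 switches on were close to their starting levels at 24 h in p53 knockout skin. Of 43 listed targets measured, none was called higher or lower, where 2.13% of all genes were called. At that share a list of this size would hold few called genes. A count of none therefore says little, here and for the lists below. The median log2 ratio of the targets was 0.03. In Krt17 knockout skin it was 0.46 (8 of 44 higher, with 1.78% of all genes higher). In wild-type skin it was 0.38 (5 higher and 1 lower of 44, with 2.31% of all genes higher and 3.72% lower). Ccng1, a p53-induced cyclin, had 20.01, 19.3 and 18.6 FPKM in the p53 knockout at 0, 6 and 24 h, against 18.8, 57.1 and 43.2 FPKM in Krt17 knockout skin and 15.2, 39.8 and 33.3 FPKM in wild-type skin. It was flat in p53 knockout skin and well above control at both times in the other genotypes. Mgmt, which removes alkyl groups from guanine, had 2.83, 2.28 and 3.82 FPKM in p53 knockout skin, while at 24 h it had 29.3 FPKM in Krt17 knockout skin and 28.4 FPKM in wild-type skin. Bax, which permeabilizes mitochondria in cell death, had 99.6, 97.3 and 104 FPKM in p53 knockout skin, and at 24 h 154 FPKM in Krt17 knockout and 174 FPKM in wild-type skin. Cdkn1a, the p21 cell cycle inhibitor, had 131, 130 and 156 FPKM in p53 knockout skin, with a log2 ratio of 0.25 at 24 h. The widest target ratios were 0.60 for Eda2r and -0.35 for Ddit4l.

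**Figure D2:**
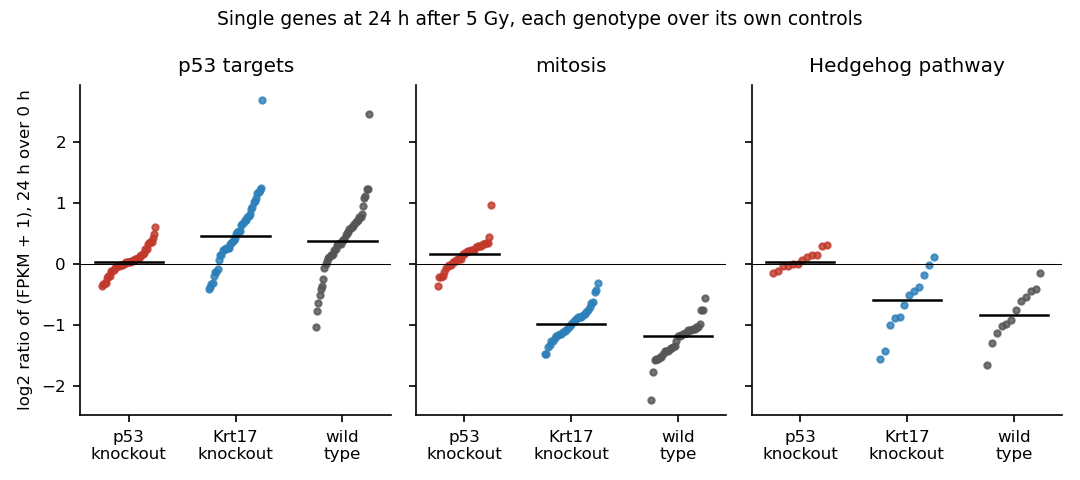
Each point is the log2 ratio of (FPKM + 1) of 1 gene at 24 h over the 0 h controls of the same genotype, with horizontal bars at the list medians. Mitotic genes have medians of 0.17, -0.98 and -1.18 in p53 knockout, Krt17 knockout and wild-type skin.

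Genes of cell division were as abundant at 24 h as in controls. Of 33 mitotic genes none was called in p53 knockout skin (2.13% of all genes were), and the median log2 ratio was 0.17, with 24 of 33 above 0. In the other genotypes none of the 33 was above 0, with 16 lower in Krt17 knockout skin (median -0.98, 1.25% of all genes lower) and 29 lower in wild-type skin (median -1.18, 3.72% of all genes lower). Mki67, a proliferation marker, had 22.2, 19.8 and 19.1 FPKM in the p53 knockout at 0, 6 and 24 h. At 24 h it had 4.03 FPKM in Krt17 knockout skin, against 12.9 FPKM in its controls, and 2.93 FPKM in wild-type skin, against 17.4 FPKM in its controls. Cdk1, the kinase that drives entry into mitosis, had 87.0 FPKM at 24 h against 71.1 FPKM at 0 h in p53 knockout skin. Cenpf, a kinetochore protein, had the highest ratio of the list at 0.97, with 8.77 FPKM against 3.98 FPKM. DNA replication genes (34 measured) had a median of 0.09, against -0.53 in Krt17 knockout and -0.88 in wild-type skin, and DNA repair genes (35 measured) had medians of 0.16, -0.36 and -0.69 in the same order. None of either list was called in p53 knockout skin, where 2.13% of all genes were. The medians over all genes were 0.04 in p53 knockout, -0.10 in Krt17 knockout and -0.21 in wild-type skin.

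The signals of the hair matrix also stayed near control. Shh, the hedgehog ligand, had 7.14, 11.6 and 9.06 FPKM in the p53 knockout at 0, 6 and 24 h. In Krt17 knockout skin it had 1.33 FPKM at 24 h against 5.21 FPKM at 0 h, and in wild-type skin 1.203 FPKM against 5.90 FPKM. The receptor Ptch1 had 10.6 FPKM at 24 h against 11.5 FPKM at 0 h in p53 knockout skin, and the transcriptional effector Gli1 had 19.7 against 17.6 FPKM. Over 12 Hedgehog genes the median ratio was 0.04 with none called (2.13% of all genes were). It was -0.59 in Krt17 knockout skin, with 3 lower (1.25% of all genes were). In wild-type skin it was -0.83, with 4 lower (3.72% of all genes were). Msx1, a matrix transcription factor, had 11.4 FPKM at 24 h against 11.8 FPKM at 0 h, and Lef1, which mediates Wnt signals, had 29.1 against 25.6 FPKM. Msx1 had log2 ratios of -1.63 in Krt17 knockout and -2.16 in wild-type skin.

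The list medians of keratin-associated proteins and hair shaft keratins were near or below 0 in p53 knockout skin and above 0 in both other genotypes. Keratin-associated proteins, which fill the space between keratin filaments in the shaft, had a median log2 ratio of -0.21 over 54 genes. Of these, 4 were lower (1.16% of all genes were), none was higher (0.972% of all genes were) and 17 were above 0. The median was 0.90 in Krt17 knockout skin, with 15 of 55 higher (1.78% of all genes were). It was 0.94 in wild-type skin, with 26 of 55 higher (2.31% of all genes were). Krtap symbols took 9.53% of the FPKM total at 24 h against 11.7% at 0 h in p53 knockout skin, 19.4% against 12.5% in Krt17 knockout skin and 21.3% against 11.7% in wild-type skin. Krtap31-1 had 79.7, 7.16 and 33.0 FPKM at 0, 6 and 24 h. The family holds near-identical genes, so single members are uncertain. Hair shaft keratins (14 measured) had a median of -0.03 with none called in p53 knockout skin (2.13% of all genes were). In Krt17 knockout skin the median was 0.56 with none called (1.78% of all genes were higher and 1.25% lower). In wild-type skin it was 0.32 with 4 higher (2.31% of all genes were). Krt35, a keratin of the early shaft, had 517, 406 and 526 FPKM at 0, 6 and 24 h. At 24 h it had 305 FPKM in Krt17 knockout skin and 343 FPKM in wild-type skin, against 586 and 650.2 FPKM in their controls.

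**Figure D3:**
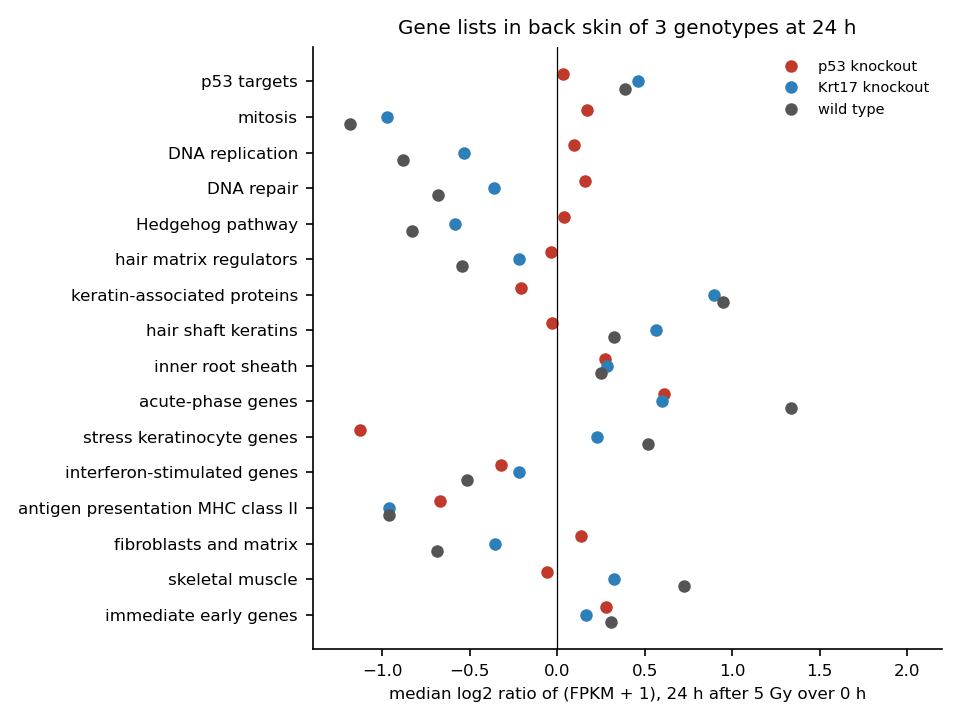
Median log2 ratio of (FPKM + 1) at 24 h over 0 h for 16 gene lists, 1 point per genotype. p53 knockout medians lie near 0 for p53 targets (0.03), Hedgehog (0.04) and hair shaft keratins (-0.03), and at -1.13 for stress keratinocyte genes.

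Of the 52 lists, the acute-phase list held the most higher genes. Of 19 measured genes, 8 were higher (0.972% of all genes were) and 1 was lower, and the median log2 ratio was 0.61. At 6 h, 13 of 17 members were higher (2.24% of all genes were, and 1.09% were lower) and the median was 1.87, so its members were further above control at 6 h than at 24 h; both times share the 0 h group. At 24 h the median was 0.60 in Krt17 knockout skin and 1.34 in wild-type skin. Saa3, a serum amyloid A protein made at sites of inflammation, had 10.1, 1888 and 138 FPKM at 0, 6 and 24 h. In Krt17 knockout skin Saa3 had 36.9 FPKM at 24 h against 24.5 FPKM at 0 h, and in wild-type skin 295 against 8.79 FPKM. Lcn2, an iron-carrier-binding protein of neutrophils and epithelia, had 9.19, 287 and 62.4 FPKM in p53 knockout skin, with 6 h the highest time. Serpina3n, a protease inhibitor, had 22.6, 209 and 112 FPKM. Saa1 and Saa2 had 17.9 and 28.3 FPKM at 24 h, against 0.798 and 0.731 FPKM at 0 h. Hp, which binds free haemoglobin, had 388 FPKM at 24 h against 189 FPKM at 0 h, and Lbp, which binds bacterial lipopolysaccharide, had 18.3 against 5.62 FPKM. The metallothioneins Mt1 and Mt2 were back near control, with 1853, 7263 and 1953 FPKM of Mt1. Chil1, a chitinase-like protein, was the lower member, with 33.3, 140 and 10.9 FPKM.

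Of 35 chemokine and cytokine genes, 5 were higher and 2 lower, with a median of -0.02. Over all genes, 0.972% were higher and 1.16% lower. Cxcl13, which attracts B cells, had 1.92, 41.9 and 16.9 FPKM in the p53 knockout at 0, 6 and 24 h. Ccl6 had 68.3 FPKM at 24 h against 20.3 FPKM at 0 h, and Ccl7, a monocyte attractant, had 19.2 against 8.16 FPKM. Ccl27b had 41.7, 5.37 and 0.543 FPKM, a log2 ratio of -4.79 at 24 h. Ccl27b was also lower at 24 h in Krt17 knockout skin (-2.18) and wild-type skin (-2.70), and Ccl20, which attracts Langerhans cell precursors, was lower in p53 knockout skin with 2.18 against 5.99 FPKM. Of 9 neutrophil genes measured, 5 had ratios above 0 and none was called (2.13% of all genes were), with a median of 0.23.

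**Figure D4:**
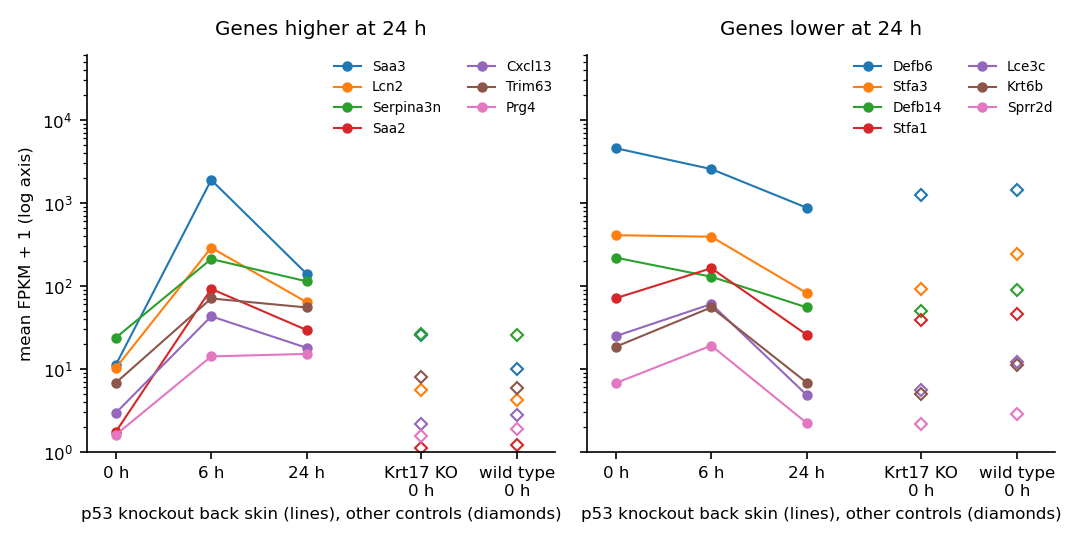
Mean FPKM + 1 on a log axis at 0, 6 and 24 h in p53 knockout back skin (lines), with the controls of the other genotypes as diamonds. Saa3, Lcn2, Serpina3n, Saa2 and Cxcl13 peak at 6 h. The lower genes, such as Defb6 with 4553 FPKM at 0 h and 872 FPKM at 24 h, start above both other control groups. A high 0 h mean enters the ratio by which the lower genes were called.

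Of the 52 lists, the stress keratinocyte list held the most lower genes. Of 41 measured, 21 were lower (1.16% of all genes were), none was higher, and the median log2 ratio was -1.13. The 6 h median was 0.60. The 24 h median was 0.23 in Krt17 knockout skin and 0.52 in wild-type skin. Defb6, a beta-defensin, had 4553, 2551 and 872 FPKM in the p53 knockout at 0, 6 and 24 h. Defb14, another beta-defensin, had 217, 128 and 53.9 FPKM. Stfa3, a stefin that inhibits cysteine proteases, had 406, 389 and 80.6 FPKM. Defensins and stefins thus stood lowest at 24 h. Lce3c, a cornified envelope protein, had 23.7, 59.2 and 3.82 FPKM, and Krt6b, a stress-induced keratin, had 17.4, 53.9 and 5.80 FPKM, so these were highest at 6 h. Sprr2d, a small proline-rich envelope protein, had 5.73, 18.0 and 1.21 FPKM. Defb3 was listed at 0 at 24 h, with 6.61 FPKM at 0 h. Other members stayed near control at 24 h: Krt6a had 188 FPKM against 187 FPKM, and the alarmins S100a8 and S100a9 had 98.8 and 48.3 FPKM against 95.2 and 50.2 FPKM. The Sprr2, Lce3, Stfa and Defb families hold close copies, so single members are uncertain.

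Over the whole stress keratinocyte list, unirradiated p53 knockout skin stood mostly above the other unirradiated groups. Of 40 genes compared, 36 were above wild type (median log2 ratio 0.62) and 34 above Krt17 knockout (median 1.05). The medians over all genes were -0.02 and 0.06. All 21 lower stress keratinocyte genes were more abundant in unirradiated p53 knockout skin than in both other unirradiated groups, and at 24 h none was above both and 10 were below both. Defb6 had 872 FPKM at 24 h in p53 knockout skin, against 1254 FPKM in unirradiated Krt17 knockout skin and 1442 FPKM in unirradiated wild-type skin. Over all 163 lower genes, 144 started above both other unirradiated groups, against 5360 of all 14089 genes, and of the 137 higher genes 42 started below both, against 4138 of all 14089, a share close to that of all genes. A low or high 0 h mean enters both the ratio and this count, and its part in the result was not tested.

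**Figure D5:**
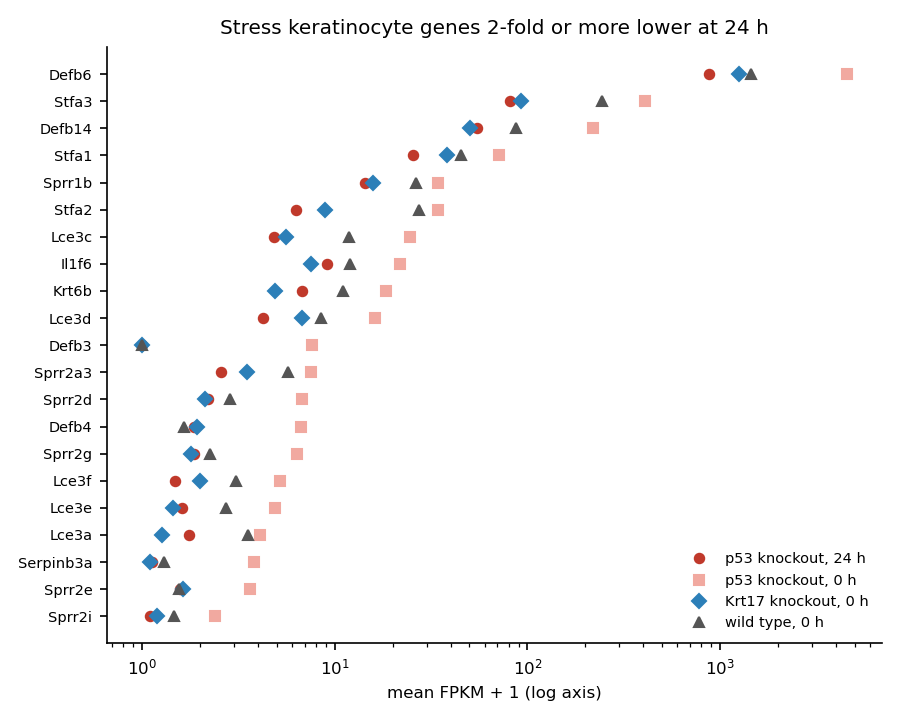
Mean FPKM + 1 on a log axis for the 21 stress keratinocyte genes that were lower at 24 h. The p53 knockout 0 h squares lie to the right of the Krt17 knockout and wild-type 0 h points for every gene. A high 0 h mean enters the ratio by which these genes were chosen. The 24 h circles lie to the left of both those points for 10 genes and to the right of both for none.

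Most interferon-stimulated genes and all MHC class II genes measured had ratios below 0, and few were called. Of 47 interferon-stimulated genes, 4 were lower (1.16% of all genes were) and none higher, with a median of -0.32 and 4 genes above 0. Isg15, an antiviral ubiquitin-like protein, had 74.8, 49.0 and 34.8 FPKM at 0, 6 and 24 h, and Irf7, a transcription factor of the interferon response, had 32.9, 19.8 and 14.6 FPKM. All 4 lower genes (Lgals3bp, Ifi27l2a, Irf7 and Isg15) started above both other control groups, as did 144 of all 163 lower genes. A high 0 h mean enters the ratio by which they were called. Of 48 listed genes compared at 0 h, 27 were above wild-type controls (median log2 ratio 0.09) and 45 above Krt17 knockout controls (median 0.53). At 24 h the medians were -0.22 in Krt17 knockout skin and -0.52 in wild-type skin, against -0.10 and -0.21 over all genes. All 6 MHC class II genes measured were below 0 in p53 knockout skin, with a median of -0.67 and none called (2.13% of all genes were). H2-Aa, an antigen-presenting chain, had 153, 174 and 81.4 FPKM at 0, 6 and 24 h. The medians were -0.96 in both other genotypes, and H2-Aa had 63.5 FPKM at 24 h in Krt17 knockout skin against 133 FPKM at 0 h, and 84.0 against 167 FPKM in wild-type skin.

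Of 24 fasting and FoxO genes, 2 were higher at 24 h (0.972% of all genes were), Trim63 and Pdk4, and the list median was 0.17. At 6 h, 16 were higher (2.24% of all genes were) and the median was 1.45. Trim63, a ubiquitin ligase of muscle wasting, had 5.75, 69.4 and 53.8 FPKM at 0, 6 and 24 h, and Pdk4, a kinase that limits glucose oxidation, had 6.14, 92.9 and 30.8 FPKM. Mustn1, Ankrd2 and Hspb7, named because they were higher in all 3 genotypes, had 59.0, 29.8 and 32.8 FPKM at 24 h, against 13.2, 8.91 and 10.3 FPKM at 0 h. The skeletal muscle list (34 genes) had a median of -0.06 with none higher and 2 lower (1.16% of all genes were), Tcap and Mb. Of 22 immediate early genes, 4 were higher, against 0.972% of all genes. Fos, a subunit of AP-1, had 8.84, 10.3 and 54.6 FPKM, and Fosb had 0.969, 0.285 and 15.5 FPKM, while wild-type controls had 34.8 FPKM of Fos and 9.90 FPKM of Fosb. Atf3 and Nr4a1, both stress-induced transcription factors, had ratios of 1.75 and 1.22.

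Each genotype was set against its own controls to see which called genes were shared. Of 96 higher genes comparable with wild type, 47 were also higher there, which is 49.0% of the p53 knockout list and 18.9% of the 249 wild-type genes. Over all 13632 genes compared, 1.83% were higher in wild-type skin, and 5 of the 96 were lower there. With Krt17 knockout skin 29 were shared, 29.9% of 97 and 18.5% of 157, while 1.16% of all 13493 genes compared were higher in Krt17 knockout skin and 5 of the 97 were lower there. Of 88 higher genes compared in all 3 genotypes, 22 (25.0%) were higher in both others too. Over all 13352 genes compared, 67 (0.502%) were higher in both others. The 22 genes included Saa1, Saa2, Lcn2, Serpina3n, Cxcl13, Hp, Prg4, Trim63, Mustn1, Ankrd2 and Hspb7. Of the lower genes, 24 of 115 (20.9%) were also lower in wild-type skin, 5.05% of its 475, and 14 (12.2%) were higher there. Over all genes compared, 3.48% were lower and 1.83% higher in wild-type skin. In Krt17 knockout skin 17 of 118 (14.4%) were also lower, 11.6% of its 146, and 18 (15.3%) were higher. Over all genes compared, 1.08% were lower and 1.16% higher in Krt17 knockout skin. Of 101 lower genes compared in all 3 genotypes, 8 (7.92%) were lower in both others too, against 85 (0.637%) of all 13352 genes compared. These 8 included Krt2, a keratin of the upper epidermis, Defb8 and Ccl27b. Defb8 had 140, 123 and 7.23 FPKM in the p53 knockout at 0, 6 and 24 h. Of 101 lower genes compared in all 3 genotypes, 77 (76.2%) were not called lower in either other genotype, which held for 96.2% of all 13352 genes compared, and the difference between genotypes was not tested.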

How the data were processed

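RNA from mouse skin was sequenced (Illumina, Trizol extraction, per the labels' protocols). Per the submitters' processing notes, the tools included TopHat2 2.1.0 and Cufflinks 2.2.1, and the build was mm10. The deposited FPKM values were 1 mean per group of 2 samples. The annotation release, strand setting, averaging and read numbers are not given in the sources used here, so no interval or detection limit was computed. Per gene, the log2 ratio of (FPKM + 1) between group means was taken, for genes at 1 FPKM or more in either group, and 2-fold or more was called. This scale understates changes of low genes. The planned limma fit applied only to single samples. A listed 0 in a gene with a median of 5 FPKM or more elsewhere was treated as missing (2 values). Symbols on several lines (114) were left out of the lists and named genes but stayed in the counts over all genes. A spreadsheet had turned 27 symbols into numbers, and these were restored by gene ID. Positions came from GENCODE M21 (GRCm38), which held 47217 of 47633 IDs, and promoters from RefSeq (GRCm38.p6). Named genes were Trp53, Krt17, p53 targets, Saa, Lcn2, Krt6 and Krt16 genes, the 20 greatest increases and decreases at 5 FPKM or more, the 4 greatest changes of each list, and genes called in all 3 genotypes; other list members named were chosen after their values were seen. The 52 gene lists and the members were chosen with earlier results of these data known. Of 6 promoter motifs, 1 was chosen after the sequences had been read. The counting was tested on simulated data. The settings varied were the pseudocount (0.1 FPKM), the filter (none, or a filter of 5 FPKM), rescaled columns, zeros kept, and genes 8-fold apart in 1 column left out. Python 3.11.15, numpy 2.4.6, pandas 2.3.3, matplotlib 3.10.9 and Biopython 1.88 were used. Footpad skin was not used.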

Additional observations from a re-analysis of the deposited data

How the results depend on the processing

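With a pseudocount of 0.1 FPKM, 245 genes were higher and 285 lower, and with a filter of 5 FPKM, 72 and 90, against 137 and 163; low genes make the difference in both. Under the other alternatives the counts moved by less than 1.5 times. List medians moved by over 0.2 in 6 cases, and in these the cause was not tested. With a pseudocount of 0.1 FPKM, stress keratinocyte genes had -1.35, neutrophil genes 0.45 and T and natural killer cell genes -0.71. Without a filter the last had -0.21. With a filter of 5 FPKM, chemokines and cytokines had 0.24 and haemoglobin and erythroid genes -0.34. Of 276 named genes, 47 moved by over 0.2 with the pseudocount of 0.1 FPKM. Near 0 the sign was not stable. The medians of 9 lists, each within 0.0581 of 0 as reported, changed sign under some alternative, among them chemokines and cytokines with the filter of 5 FPKM and, with rescaled columns, p53 targets (-0.01) and the Hedgehog list (-0.01), as did the ratios of 6 named genes within 0.032 of 0. No paired analysis was possible because the columns are group means, and leaving out replicates was not run for the same reason. Low genes and 1 mean per group limit the precision.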

Other observations

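Genes of the unfolded protein and integrated stress response stood slightly above control at 24 h in p53 knockout skin. Of 27 genes measured, 23 had log2 ratios above 0, with a median of 0.24 (0.04 over all genes). None was called, where 2.13% of all genes were. The list median was 0.34 in both Krt17 knockout and wild-type skin. Hspa5, the main chaperone of the endoplasmic reticulum, had 155, 124 and 299 FPKM at 0, 6 and 24 h. Heat shock genes had a median of 0.25 with 14 of 15 above 0, led by Hsph1 at 0.86. Their median was 0.26 in Krt17 knockout and -0.07 in wild-type skin. Mast cell genes had a median of 0.51, with 8 of 9 above 0, and Mcpt4, a mast cell protease, had 17.9, 30.6 and 25.9 FPKM. Mcpt4 had 31.4 FPKM in wild-type controls and 19.9 FPKM in Krt17 knockout controls. The list median was -0.04 in Krt17 knockout and -0.15 in wild-type skin. In unirradiated p53 knockout skin, 2 of 8 mast cell genes were above wild-type controls (median -0.42) and 4 of 7 above Krt17 knockout controls (median 0.16). T and natural killer cell genes had a median of -0.43 with 2 of 11 above 0, and Trbc1, a T cell receptor constant chain, had 11.2, 5.66 and 4.15 FPKM.

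Nrd1, a protease, had 688 FPKM at 24 h in p53 knockout skin, against 81.3 FPKM at 0 h, while Krt17 knockout and wild-type skin had 89.5 and 80.9 FPKM at 24 h. Wild-type skin had 192 FPKM of Nrd1 at 6 h, against 81.6 FPKM at 0 h. Slc5a11 had 17.05 FPKM at 24 h against 0.45 FPKM at 0 h in p53 knockout skin, over 8-fold above every other back skin group. Lars2 had 57.9, 70.7 and 16.1 FPKM in the p53 knockout at 0, 6 and 24 h, and its 1039 FPKM in wild-type skin at 6 h stood apart from all other groups. The short RNAs Rmrp and Rpph1 had ratios of -2.35 and -2.01 at 24 h in p53 knockout skin, and varied widely between groups of the other genotypes. Hbb-bt, a beta-globin gene, had 107, 71.2 and 31.7 FPKM at 0, 6 and 24 h, while Hba-a1, an alpha-globin gene, had 297, 361 and 413 FPKM.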
